A study of Mus musculus with 40 samples.

Results

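The 10 genes described here carry out or control the making of glucose and the storage and breakdown of glycogen in the liver: Pcx, Pck1, Fbp1, G6pc, Sds, Tat, Ppargc1a, Slc2a2, Gys2 and Pygl. They were chosen by name, with earlier results of these data known, and are 10 among 55359 identifiers that were counted. All 10 of them passed the filter on low counts, beside 15373 genes tested in all. The samples were 40 livers of male C57BL/6 mice, 5 in each of 8 groups. Mice were gavaged every 4 days for 28 days, from 30 to 58 days of age, with sesame oil vehicle or with TCDD, a persistent dioxin that binds the aryl hydrocarbon receptor (AhR), in the same oil. TCDD was given at 7 doses, of which the lowest were 0.03, 0.1 and 0.3 μg/kg and the others 1, 3, 10 and 30 μg/kg. The labels name no genetic change, all animals fed freely, and each library came from 1 piece of frozen whole liver, so cell types were not separated. Counts in genes ran from 15.5 to 21.0 M per library (M standing for mega, median 17.5 M). Levels are CPM, a gene's counts per M counts of its library after trimmed-mean (TMM) scaling, and a gene was called changed where the edgeR quasi-likelihood test gave a Benjamini-Hochberg adjusted p below 0.05 together with a fold of at least 1.5.

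The liver makes glucose from pyruvate, lactate, glycerol and amino acids, chiefly between meals, and releases it to the blood. The route runs from pyruvate through oxaloacetate and phosphoenolpyruvate back up the glycolytic chain, and it ends when a phosphate is removed from glucose phosphate in the endoplasmic reticulum. Glucose in excess is stored in the same cells as glycogen, which phosphorylase breaks down again. Glucagon, through cyclic AMP, and glucocorticoids raise transcription of several of these genes, and insulin lowers it.

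Promoters bear on this because AhR and the cyclic AMP pathway each act through short DNA motifs. RefSeq start sites were matched for 8 of the 10 genes, giving 9 windows of 250 bases before a start, since Pcx has a pair of starts. The letters searched, on both strands, were GCGTG, the core of the dioxin response element, TGACG, the half-site of the cyclic AMP response element, and TGACGTCA, the full form of that element, which holds the half-site within it. The dioxin core was present in 1 of the 9 windows, that of Pygl, and in 28.2% of all 32851 promoters of the same length. The cyclic AMP half-site was present in 3 of the 9 (Pck1, Ppargc1a and Pygl) and in 17.8% of all promoters, while the full element was in 0 of the 9 and in 1.55% of all. Printed 5′ to 3′ on the gene's strand (RefSeq, GRCm38.p6), with the matched letters in capitals, are the windows of Pck1 (chr2:173152823-173153072, plus strand) and Pygl (chr12:70227684-70227933, minus strand), which hold a match, of Fbp1 (chr13:62888283-62888532, minus strand), the 1 gene that rose, and of Slc2a2 (chr3:28697653-28697902, plus strand), the gene with the largest fitted fall.
Pck1: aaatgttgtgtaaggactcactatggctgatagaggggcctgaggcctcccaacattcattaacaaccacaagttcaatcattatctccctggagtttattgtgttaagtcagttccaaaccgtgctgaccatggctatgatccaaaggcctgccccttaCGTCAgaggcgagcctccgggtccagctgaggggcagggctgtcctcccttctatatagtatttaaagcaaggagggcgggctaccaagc
Pygl: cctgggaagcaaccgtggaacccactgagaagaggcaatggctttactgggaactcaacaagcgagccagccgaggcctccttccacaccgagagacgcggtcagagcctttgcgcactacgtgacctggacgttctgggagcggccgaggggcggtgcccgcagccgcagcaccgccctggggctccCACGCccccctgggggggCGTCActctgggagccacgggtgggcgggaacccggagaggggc
Fbp1: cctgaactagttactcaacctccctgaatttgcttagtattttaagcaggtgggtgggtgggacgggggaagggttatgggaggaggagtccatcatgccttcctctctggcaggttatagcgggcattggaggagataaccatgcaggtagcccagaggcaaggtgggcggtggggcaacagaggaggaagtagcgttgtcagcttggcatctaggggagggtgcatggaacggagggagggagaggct
Slc2a2: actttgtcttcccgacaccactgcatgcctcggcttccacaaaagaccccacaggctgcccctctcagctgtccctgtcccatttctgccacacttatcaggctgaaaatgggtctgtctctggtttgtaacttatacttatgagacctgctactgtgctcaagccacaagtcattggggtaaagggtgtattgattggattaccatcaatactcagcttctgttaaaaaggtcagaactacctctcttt
The match in Pck1 lay 90 to 86 bases before the start, on the opposite strand. In Pygl the dioxin core lay 62 to 58 bases before the start and the half-site 44 to 40 bases before it, also on the opposite strand. The windows of Fbp1 and Slc2a2 held none of the 3 sets of letters, which says only that these letters are not in these bases.

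TCDD repressed most of the 10 genes at the higher doses, and Fbp1 alone among them was induced. At the top dose of 30 μg/kg, 8 were called lower, with fitted folds from 1.79-fold (Tat) to 7.56-fold (Slc2a2), Fbp1 was called 2.00-fold higher, and Ppargc1a was not called. Among all genes tested, 18.9% were called lower at this dose, 23.2% higher and 42.1% in either direction. At 10 μg/kg 7 were called lower and Fbp1 higher, against 8.13% and 13.6% of all genes and 21.8% in either direction. At 3 μg/kg G6pc, Gys2 and Tat were called lower, against 2.22% of all genes lower and 6.75% in either direction. At 0.03, 0.1, 0.3 and 1 μg/kg the edgeR test called 0 of the 10, against 0.0195%, 0.0976%, 0.468% and 2.78% of all genes. DESeq2 and limma also called 0 at these doses, and an unadjusted p below 0.05 was reached by 0 genes at the 3 lowest doses and by 3 at 1 μg/kg. Gys2 at 1 μg/kg passed the adjusted p alone (adjusted p = 0.0449) with a fold of 1.40. The adjusted p was passed there by 3.75% of all genes, a share that includes the 2.78% also past the fold threshold. The median log2 fold change of the 10 genes was -0.43 at 1 μg/kg, -0.68 at 3, -0.79 at 10 and -1.58 at 30, while that of all genes tested stayed between -0.02 and 0.03 at every dose. TMM scaling itself tends to hold the median of all genes near 0. With library totals in place of TMM scaling that median was 0.22 at 10 μg/kg and 0.52 at 30.

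**Figure D1:**
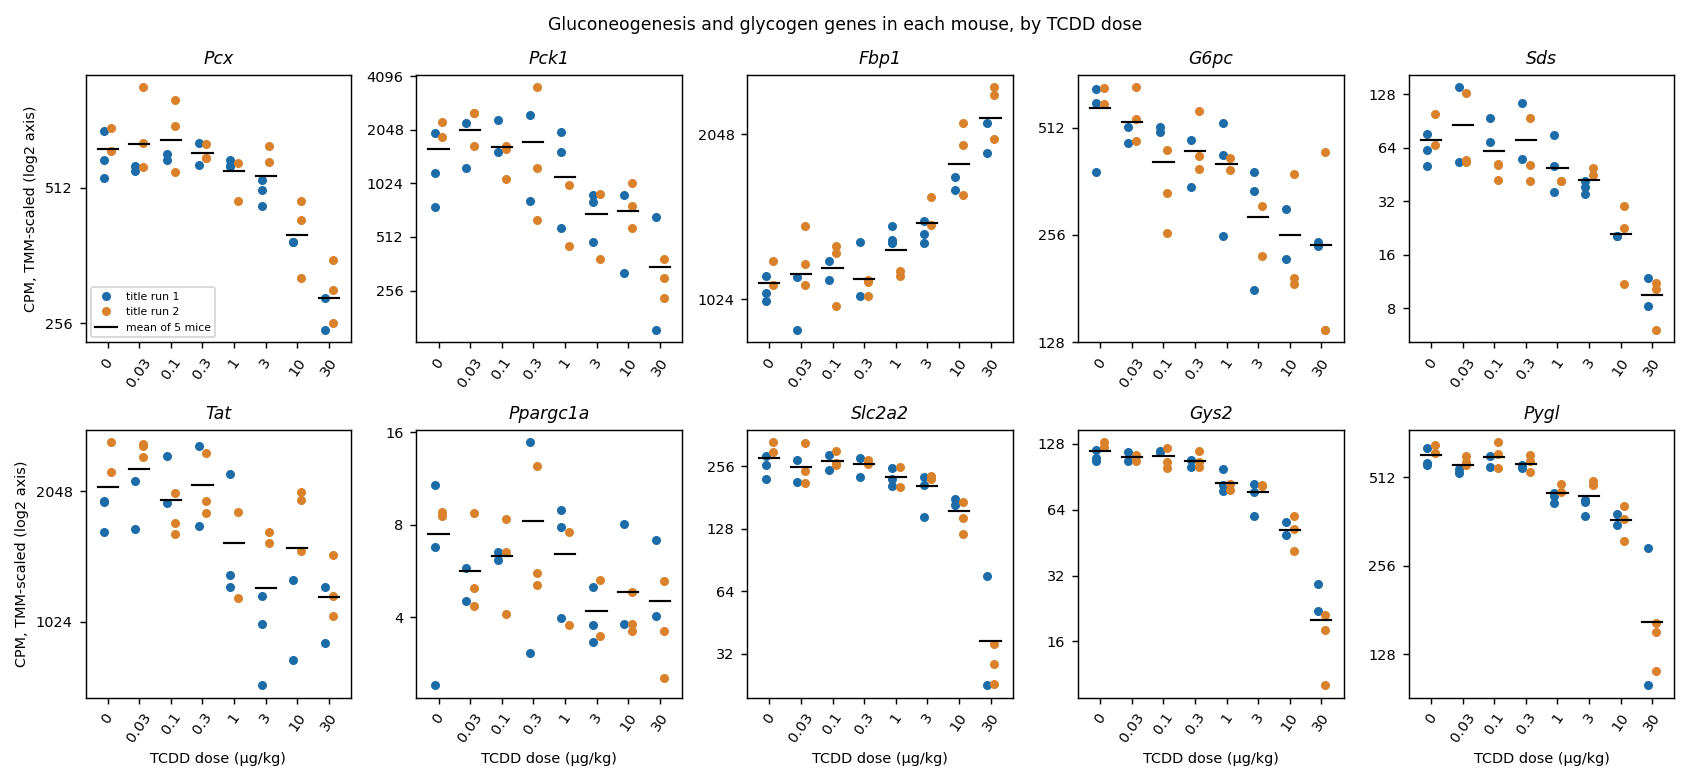
Level of each of the 10 genes (CPM after TMM scaling, log2 axis) in each of the 40 mice against TCDD dose, with 0 for vehicle. Each point is 1 mouse, its colour the run of title numbers it belongs to, and each black line is the mean of 5 mice. Fbp1 rises to between 1898 and 2502 CPM at 30 μg/kg, Gys2 and Pygl lie below every vehicle mouse from 1 μg/kg on, and Ppargc1a overlaps the vehicle mice at every dose.

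**Figure D2:**
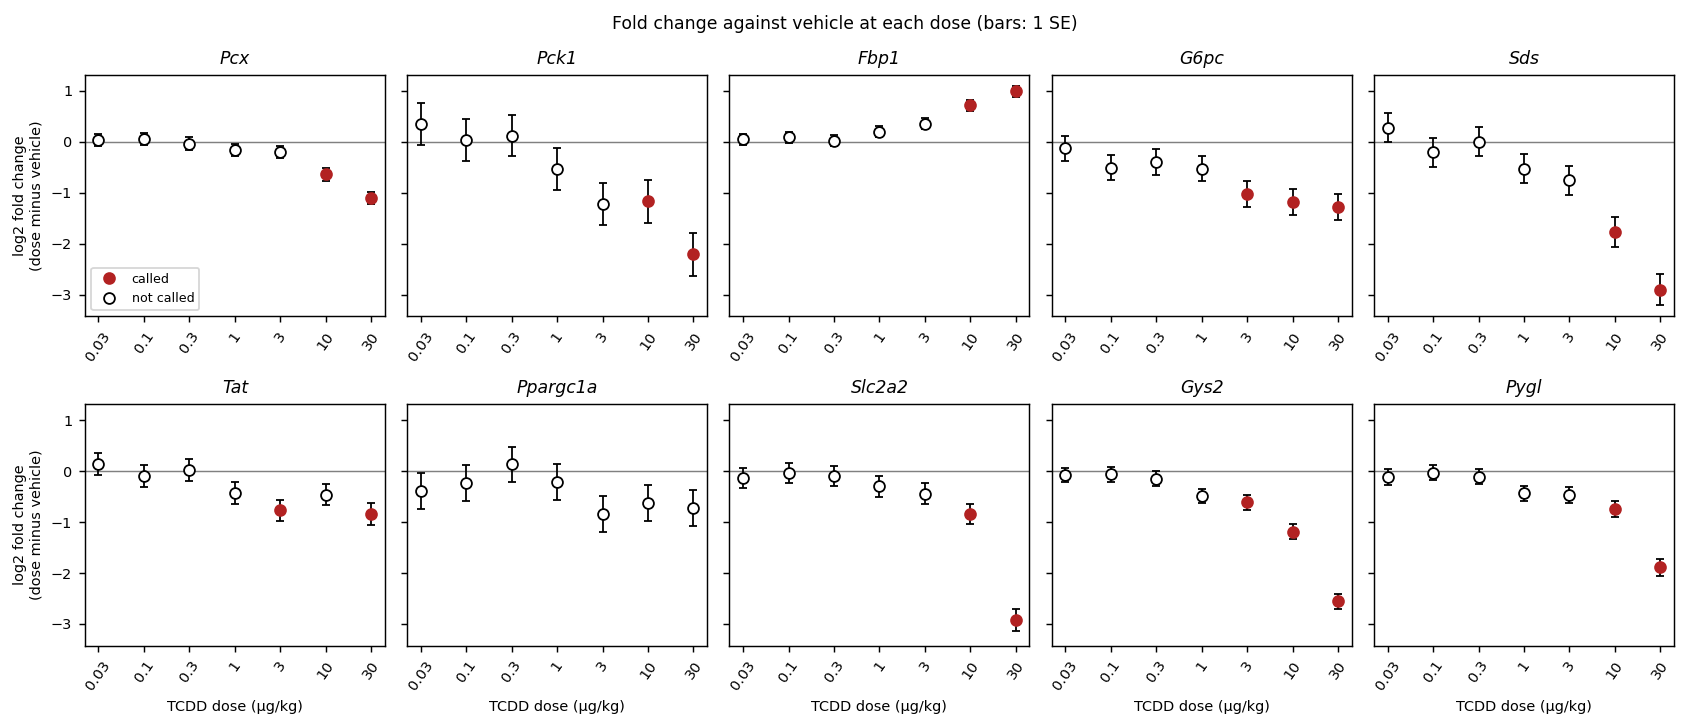
Log2 fold change of each gene against vehicle (y axis) at each TCDD dose (x axis), from edgeR over all 40 libraries. Bars are 1 SE, and filled points passed both the adjusted p and the fold threshold. Slc2a2 reaches -2.92 and Sds -2.90 at 30 μg/kg, while G6pc changes little between 3 and 30 μg/kg (-1.01 and -1.28).

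Gluconeogenesis from pyruvate begins with pyruvate carboxylase, the mitochondrial enzyme encoded by Pcx. Pcx levels in the vehicle mice were 536, 589, 618, 684 and 694 CPM, and in the mice at 30 μg/kg 247, 256, 292, 304 and 354 CPM. The groups did not overlap at 30 μg/kg, nor at 10 μg/kg, where the highest mouse had 477 CPM. Pcx fell 1.56-fold at 10 μg/kg (log2 fold change -0.64, SE 0.12, adjusted p = 8.24e-05) and 2.15-fold at 30 μg/kg (-1.10, SE 0.12, adjusted p = 9.38e-10). The fall at 10 μg/kg lay just past the fold threshold, and without replicate 3 of that dose its log2 fold change was -0.57, short of it.

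Pck1, the cytosolic phosphoenolpyruvate carboxykinase that commits oxaloacetate to glucose, was among the most variable of the 10. It had 754, 1174, 1874, 1965 and 2254 CPM in the vehicle mice, a coefficient of variation of 38.6%. At 3 μg/kg its levels were 387 to 891 CPM and overlapped vehicle, and a 2.33-fold lower mean missed the adjusted threshold (adjusted p = 0.0551). At 10 μg/kg the 5 mice had 320, 574, 767, 885 and 1028 CPM, again overlapping vehicle, and Pck1 was called 2.25-fold lower (log2 fold change -1.17, SE 0.42, adjusted p = 0.0292). That call at 10 μg/kg was kept in 15 of 23 alternative fits. It was lost under library totals alone (adjusted p = 0.0618), in either run of title numbers alone (0.298 and 0.0675), and when vehicle replicates 2, 4 or 5 or replicates 1 or 3 of the 10 μg/kg group were left out. At 30 μg/kg the levels were 153, 231, 299, 384 and 666 CPM, all below the lowest vehicle mouse, and Pck1 fell 4.62-fold (log2 fold change -2.21, SE 0.43, adjusted p = 3.60e-05).

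Fbp1, the fructose bisphosphatase that reverses the phosphofructokinase step, moved the other way. Its vehicle levels were the tightest of the 10, at 1019, 1053, 1090, 1128 and 1203 CPM. The 5 mice at 3 μg/kg had 1298 to 1575 CPM, all above every vehicle mouse, and the 1.28-fold difference passed the adjusted p (0.0251) but not the fold threshold. Fbp1 then rose 1.64-fold at 10 μg/kg (adjusted p = 1.98e-06), where the levels ran from 1588 to 2150 CPM. At 30 μg/kg the mice had 1898, 2011, 2151, 2415 and 2502 CPM, and Fbp1 rose 2.00-fold (log2 fold change 1.00, SE 0.11, adjusted p = 5.12e-10). It was called at both doses in 23 of 23 alternative fits.

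G6pc, the catalytic subunit of the phosphatase that frees glucose at the last step, was called at 3 μg/kg, where Pcx, Pck1 and Fbp1 were not. A difference between the genes in the dose at which they moved was not tested. The vehicle mice had 384, 597, 602, 656 and 663 CPM, with replicate 3 at 384 CPM far below the other 4. At 3 μg/kg the levels were 179, 224, 308, 341 and 385 CPM, of which 1 lay just above the lowest vehicle mouse, and G6pc fell 2.02-fold (log2 fold change -1.01, SE 0.25, adjusted p = 0.00611). It was called 2.27-fold lower at 10 μg/kg and 2.42-fold lower at 30 μg/kg (log2 fold change -1.28, SE 0.25, adjusted p = 5.04e-05). The mice given 30 μg/kg had 138, 139, 239, 245 and 437 CPM, so 4 of 5 lay below the vehicle range and 1 inside it. The step from 10 to 30 μg/kg was 1.07-fold down and did not pass the test (adjusted p = 0.816).

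Amino acids enter the route through enzymes such as Sds, the serine dehydratase that turns serine into pyruvate, and Tat, the tyrosine aminotransferase known for its response to glucocorticoids. Sds had 50.7, 61.8, 66.2, 76.6 and 98.6 CPM in the vehicle mice. It lay below all of them in every mouse at 3, 10 and 30 μg/kg. The mice at 30 μg/kg had 6.03, 8.28, 10.3, 11.0 and 11.8 CPM. Sds was 1.69-fold lower at 3 μg/kg without passing the adjusted p (0.0902), and it fell 3.39-fold at 10 μg/kg (adjusted p = 1.19e-05) and 7.46-fold at 30 μg/kg (log2 fold change -2.90, SE 0.31, adjusted p = 3.72e-10). Tat showed a smaller and less regular difference. Its levels were 1651, 1930, 1946, 2262 and 2657 CPM in the vehicle mice and 914, 1056, 1177, 1230 and 1456 CPM at 30 μg/kg, where the groups did not overlap. Tat was called lower at 3 μg/kg (1.71-fold, adjusted p = 0.0144) and at 30 μg/kg (1.79-fold, adjusted p = 0.00098), but not at 10 μg/kg, where 2 of 5 mice stood above the vehicle median and the adjusted p was 0.0952. With library totals in place of TMM scaling the difference at 30 μg/kg was -0.34 on the log2 scale and was not called (adjusted p = 0.127).

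Ppargc1a encodes PGC-1α, a coactivator that raises transcription of gluconeogenic genes in fasting. Its levels were 2.39, 6.78, 8.53, 8.81 and 10.8 CPM in the vehicle mice and 2.53, 3.61, 4.03, 5.26 and 7.16 CPM at 30 μg/kg. The groups overlapped at all 7 doses. A log2 fold change of -0.73 at the top dose (SE 0.35, adjusted p = 0.0764) was not called, but it was in 4 of 23 alternative fits. With library totals in place of TMM scaling it was -0.21 (adjusted p = 0.614) and not called. Without vehicle replicate 3, the lowest of the vehicle mice, the log2 fold change was -0.95 (adjusted p = 0.0170), and without replicate 2 of the 30 μg/kg group it was -0.97 (adjusted p = 0.0257).

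Slc2a2, which encodes GLUT2, the carrier that passes glucose across the hepatocyte membrane in both directions, had the largest fitted fall of the 10, close to that of Sds. Its levels were 222, 260, 286, 298 and 335 CPM in the vehicle mice and 120, 145, 166, 171 and 178 CPM at 10 μg/kg, with no overlap. Under 30 μg/kg, 4 mice had 22.5, 23.0, 28.5 and 35.6 CPM and replicate 1 had 75.9 CPM. Slc2a2 fell 1.79-fold at 10 μg/kg (adjusted p = 0.0011) and 7.56-fold at 30 μg/kg (log2 fold change -2.92, SE 0.21, adjusted p = 3.12e-14). Without replicate 1 its log2 fold change there was -3.36. The step from 10 to 30 μg/kg was 4.22-fold (adjusted p = 2.56e-09).

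Both glycogen enzymes were called lower at 10 and 30 μg/kg. Gys2, the liver glycogen synthase, had 106, 110, 119, 124 and 131 CPM in the vehicle mice. From 1 μg/kg on every mouse lay below these, at 78.2 to 98.1 CPM at 1 μg/kg, 59.7 to 84.3 at 3, 41.3 to 60.0 at 10 and 10.1 to 29.3 at 30. It fell 1.53-fold at 3 μg/kg (adjusted p = 0.00342), 2.28-fold at 10 μg/kg (adjusted p = 3.69e-08) and 5.88-fold at 30 μg/kg (log2 fold change -2.56, SE 0.15, adjusted p = 1.06e-16). With library totals its log2 fold change at 3 μg/kg was -0.54, short of the fold threshold, which left 2 of the 10 genes called at that dose. Pygl, the liver glycogen phosphorylase, had 563, 571, 617, 645 and 659 CPM in the vehicle mice and likewise lay below them in every mouse from 1 μg/kg on. Its levels were 311 to 407 CPM at 10 μg/kg, and at 30 μg/kg 100, 113, 152 and 163 CPM in 4 mice and 295 CPM in replicate 1. Pygl fell 1.67-fold at 10 μg/kg (adjusted p = 0.000221) and 3.71-fold at 30 μg/kg (log2 fold change -1.89, SE 0.16, adjusted p = 8.33e-13). At 3 μg/kg it passed the adjusted p (0.0413) with a fold of 1.39, short of the fold threshold. The share of all genes that lay wholly below vehicle was 3.13% at 1 μg/kg, 4.49% at 3, 10.1% at 10 and 17.9% at 30, against 2, 3, 6 and 7 of these 10 genes. Fbp1 lay wholly above vehicle at 3, 10 and 30 μg/kg, as did 5.23%, 12.9% and 19.7% of all genes.

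Replicate 1 at 30 μg/kg stood apart across the whole transcriptome, and it was the highest of its group for Slc2a2, Gys2, Pygl and Sds but the lowest for Pck1 and Tat. Its score on the first principal component, which held 47.6% of the variance, was 81.7 against 129 to 147 for the other 4 mice at that dose and 39.1 to 67.8 at 10 μg/kg. Without it 9 of the 10 genes were again called at 30 μg/kg. Their log2 fold changes were -2.02 for Pck1, -2.73 for Gys2 and -2.21 for Pygl.

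Dose was also fitted as a trend and in steps, gene by gene. A straight line over the 8 ranked dose levels passed the adjusted p in 10 of 10 genes, 9 downward and Fbp1 upward, against 57.7% of all genes (26.1% downward). Sds had the steepest slope, -0.38 log2 units for each dose step (SE 0.05, adjusted p = 1.76e-08), followed by Pck1 at -0.33, and Ppargc1a the shallowest at -0.10 (adjusted p = 0.0296). Without the 30 μg/kg group 9 of the 10 slopes passed, and that of Ppargc1a did not (adjusted p = 0.117), nor did it under library totals (slope -0.04, adjusted p = 0.389). The share of all genes with a passing slope was not computed for these alternative fits, so the 9 of 10 has no background beside it. Between neighbouring doses 0 of the 10 was called in edgeR at the 5 steps up to 3 μg/kg, where 3 (Gys2, Pygl and Tat, from 0.3 to 1 μg/kg) had an unadjusted p below 0.05. Among all genes 0.0195%, 0.039%, 0.0455%, 0.241% and 0.0585% were called at these steps. From 3 to 10 μg/kg Sds fell 2.01-fold (adjusted p = 0.0228), against 2.34% of all genes called lower. From 10 to 30 μg/kg Slc2a2 fell 4.22-fold, Gys2 2.58-fold, Pygl 2.22-fold and Sds 2.20-fold, 4 genes of 10 against 10.6% of all genes called lower. Pck1, G6pc, Tat and Ppargc1a passed at none of the 7 steps.

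Per kilobase of exon the order of the genes also changed. In the vehicle mice the highest mean level was that of Tat, 869 ± 160 CPM per kilobase (SD, n = 5), then Fbp1 at 645 ± 41.9, Pck1 at 468 ± 181 and G6pc at 240 ± 47.2. Pcx followed at 131 ± 13.9, Pygl at 88.6 ± 6.26, Slc2a2 at 48.7 ± 7.38, Gys2 at 44.5 ± 3.73 and Sds at 41.8 ± 10.7, whose spreads of 1 SD overlapped for the last 3. Ppargc1a was lowest at 1.13 ± 0.48. At 30 μg/kg Fbp1 was highest, at 1290 ± 152 CPM per kilobase, ahead of Tat at 485 ± 84.2. Slc2a2, Gys2 and Sds then lay at 6.44 ± 3.88, 7.57 ± 2.62 and 5.61 ± 1.39. Summed over the 10 genes, the level was 5773 to 8195 CPM in the vehicle mice and 4002 to 5231 CPM at 30 μg/kg.

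Other genes of the same pathways did not all follow. Of 19 further genes of gluconeogenesis and the shared glycolytic steps, all tested, 5 were called lower and 4 higher at 30 μg/kg (median log2 fold change -0.20). Among all genes tested 18.9% were called lower and 23.2% higher at this dose. Gpd1, which brings glycerol carbon into the route, fell 2.51-fold. Slc37a4, the carrier that supplies glucose phosphate to the G6pc enzyme, fell 2.18-fold. Fbp2, the muscle form of fructose bisphosphatase, rose from 0.19 ± 0.26 to 2.65 ± 1.96 CPM (log2 fold change 3.76, SE 0.84). Its level at 30 μg/kg was 12.6-fold that at 10 μg/kg. With so few counts in vehicle, Fbp2 may have passed the filter on low counts only through the 30 μg/kg group. Its call, 1 of the 4 higher, is thus no independent support for a rise. Pck2, the mitochondrial carboxykinase, rose from 2.86 ± 0.63 to 7.98 ± 2.40 CPM (2.79-fold, adjusted p = 1.08e-05). Of the 10 genes not called, Gapdh, Eno1, Tpi1, Ldha, Mdh1, Aqp9 and Mpc1 had log2 fold changes from -0.48 to -0.10. The others, Mdh2, Gpi1 and Pgk1, had 0.55, 0.49 and 0.43, and were called higher under library totals.

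All 10 further enzymes through which amino acids enter were called lower at 30 μg/kg (median log2 fold change -1.42), against 18.9% of all genes. At 10 μg/kg 5 of them were called lower, against 8.13% of all genes, and at 3 μg/kg 0, against 2.22%. Hal, which degrades histidine, fell from 721 ± 95.8 to 45.8 ± 56.1 CPM (15.8-fold, adjusted p = 7.20e-11). Gls2, the liver glutaminase, fell 6.70-fold (adjusted p = 1.18e-09), and Gpt, the alanine aminotransferase, fell 3.18-fold. Sdsl, the relative of Sds, fell 2.83-fold, from 17.2 ± 2.24 to 6.08 ± 1.69 CPM.

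Of 24 further glycogen genes, 7 were called lower and 3 higher at 30 μg/kg (median log2 fold change -0.26), against 18.9% and 23.2% of all genes. Ppp1r3b, a subunit that targets protein phosphatase to glycogen in liver, fell 6.14-fold (adjusted p = 5.20e-08). Pgm2 rose 3.92-fold and Gyg, the glycogenin that primes new glycogen, rose 2.47-fold. The forms of the synthase and phosphorylase typical of other tissues were scarce throughout. Gys1 was 5.16 ± 1.44 CPM in vehicle and 3.42 ± 0.44 at 30 μg/kg (1.51-fold lower, adjusted p = 0.0159). Pygb, the brain phosphorylase, rose 2.07-fold, from 5.11 ± 1.02 to 10.6 ± 1.27 CPM. Pygm, the muscle phosphorylase, was called lower at 1, 3 and 10 μg/kg, but vehicle replicate 2 alone held 288 of its counts against a vehicle mean of 71.8. Without that library its log2 fold change was 0.11 at 1 μg/kg, 0.23 at 3 and 0.60 at 10, with none called. The call for Gys1 at 30 μg/kg was likewise lost without vehicle replicate 2 (adjusted p = 0.100), and also under library totals (log2 fold change -0.12).

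Of 25 genes of hormonal and transcriptional control, 11 were called lower and 5 higher at 30 μg/kg (median log2 fold change -0.36). The shares of all genes were 18.9% lower and 23.2% higher. Fgf21, a hormone that the liver secretes, rose from 0.65 ± 0.40 CPM in vehicle to 5.88 CPM at 3 μg/kg, 50.2 CPM at 10 and 66.6 ± 19.2 CPM at 30 (97.5-fold, adjusted p = 3.57e-11). Pdk4, which shuts pyruvate dehydrogenase, rose 14.4-fold (adjusted p = 1.36e-07) and Igfbp1, an insulin-repressed gene, rose 8.58-fold (adjusted p = 0.00166), the latter with a range that overlapped vehicle. Nr0b2, the small heterodimer partner that represses other nuclear receptors, fell 9.50-fold (adjusted p = 4.54e-09). Gcgr, the glucagon receptor, fell 2.56-fold and Insr, the insulin receptor, fell 1.75-fold. Under library totals Insr was not called (log2 fold change -0.32). Among the transcription factors Ppara, Cebpa, Klf15, Nr3c1 and Creb3l3 were called lower (log2 fold changes -1.87, -1.65, -1.19, -0.80 and -0.70), the last 2 not under library totals. Esrra was also called lower (-0.62), but not under library totals. Cebpb went the other way and was called higher (0.89, and 1.39 under library totals). That call with TMM was kept in 4 of 10 fits with 1 library left out. Foxo1, Creb1, Crtc2 and Hnf4a were not called, with log2 fold changes from -0.36 to 0.31. The other forms of the member enzymes not yet given, G6pc3 and Slc2a1, were higher by 1.53-fold (called) and 1.23-fold (not called). The call for G6pc3 was kept in 6 of 10 fits with 1 library left out. Under library totals both genes were called higher (log2 fold changes 1.11 and 0.80).

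**Figure D3:**
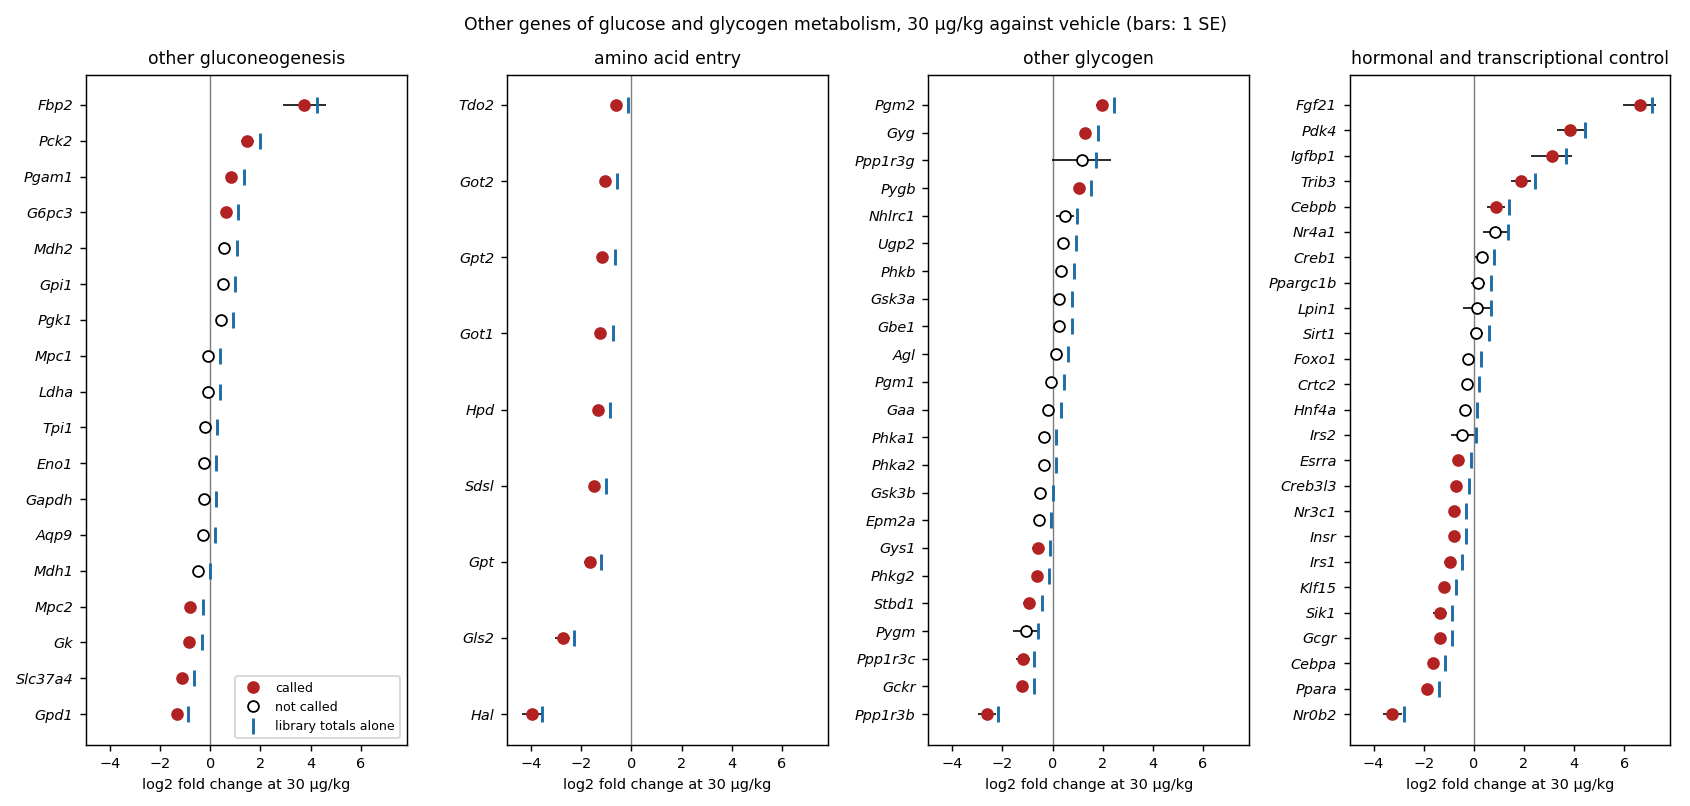
Log2 fold change at 30 μg/kg against vehicle (x axis) for the genes reported here of 4 further lists (y axis), with bars of 1 SE and filled points for genes called. Blue ticks give the same value with library totals in place of TMM scaling. Every amino acid entry gene shown lies to the left of 0 and each blue tick lies to the right of its point.

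Scaling set part of these values. TMM factors were 0.868 to 0.965 in the vehicle libraries and 1.22 to 1.40 at 30 μg/kg, and with library totals alone the median log2 fold change of all genes moved to 0.52 at 30 μg/kg and 0.22 at 10 μg/kg. Under library totals 7 of the 10 genes were called lower and Fbp1 higher at 30 μg/kg, while at 10 μg/kg 4 were called lower and Fbp1 higher. None of the 10 changed direction at 30 μg/kg. The share of all genes called under library totals was not computed. Of the further pathway genes in these lists, 45 were called at 30 μg/kg with TMM, 33 of them lower, and 47 under library totals, 22 of them lower. The counts lower and higher became 3 and 7 for the further gluconeogenesis genes, 4 and 9 for the glycogen genes and 6 and 8 for the control genes, so more were called higher than lower in each, while 9 amino acid genes were called lower and 0 higher. The medians of the further gluconeogenesis, glycogen and control lists turned to 0.29, 0.23 and 0.12 under library totals, and that of the amino acid list stayed negative at -0.93.

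Markers of other liver cell types moved with dose as well. In a bulk sample fewer hepatocytes and less RNA per hepatocyte cannot be told apart. Of 6 hepatocyte markers (Alb, Ttr, Apoa1, Apob, Trf and Serpinc1), 5 were called lower at 30 μg/kg, with a median log2 fold change of -1.50 beside the -1.58 of the 10 genes. Trf was not called. Of all genes tested, 18.9% were called lower and 23.2% higher at this dose. Their summed level was 112539 to 137165 CPM in the vehicle mice, 76443 to 122372 at 10 μg/kg and 37247 to 78082 at 30 μg/kg. All 6 macrophage markers were called higher at 30 μg/kg, their sum moving from 154 to 215 CPM in vehicle to 524 to 1359 CPM. Of the stellate and fibroblast markers 5 of 6 were higher (sum 140 to 248 CPM in vehicle, 486 to 1061 CPM at 30 μg/kg), of the endothelial markers 4 of 5 (106 to 148 and 193 to 284 CPM) and of the cholangiocyte markers 4 of 5 (37.2 to 48.4 and 67.5 to 333 CPM). The remaining cholangiocyte marker, Sox9, was called lower (log2 fold change -0.95). The 6 lymphocyte and neutrophil markers tested were all higher (2.38 to 3.48 and 11.8 to 31.6 CPM), and Ly6g was too low to test. Some marker calls at 30 μg/kg leaned on single libraries. That of Krt19 was lost without replicate 2 of the 30 μg/kg group (edgeR adjusted p = 0.163). With 1 library left out at a time, calls were kept in 7 of 10 fits for Kdr and 6 of 10 for Lyve1 and Cd3e. No list had all of its markers at 0 in any group, and the part of these shifts in the results above was not tested. The 6 AhR target genes were all called higher at 3, 10 and 30 μg/kg. At 0.03 and 0.1 μg/kg 2 of the 6 were already called higher, and at 0.3 and 1 μg/kg 5 were. Their summed level was 914 to 1245 CPM in vehicle and 26719 to 35506 CPM at 30 μg/kg.

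Library titles carry a running number in 2 runs, of 19 and 21 libraries, with up to 3 consecutive numbers for each dose within a run. What the numbers stand for is not given in the sources used here. With dose accounted for, 4 of the 10 genes differed by run and place within the run in an edgeR test over 6 levels, against 28.5% of all genes: Pck1 (adjusted p = 0.000411), Pcx (adjusted p = 0.000441), Sds (adjusted p = 0.0225) and Fbp1 (adjusted p = 0.0448). Pck1 lay 0.81 log2 units below the mean of its dose group in the libraries numbered first in run 1 and 0.37 below in those numbered first in run 2, and 0.50 and 0.40 above in those with the last of the 3 numbers. With run and place as covariates the standard error of Pck1 at 30 μg/kg was 0.31 and its log2 fold change -2.28 (adjusted p = 1.05e-07). In the same fit 5 genes were called lower at 3 μg/kg, against 7.14% of all genes called in either direction. Among the 5 were Pck1 (log2 fold change -1.40, adjusted p = 0.00168) and Sds (-0.92, adjusted p = 0.0105). At 30 μg/kg 10 of 10 were called in this fit, against 42.6% of all genes, with Ppargc1a at -0.84 (adjusted p = 0.0363). Within run 1 alone, 8 of the 10 genes were called at 30 μg/kg, and Pck1 was not (-1.68, adjusted p = 0.0674). Within run 2 alone 10 of 10 were called. Shares of all genes called were not computed for single runs.

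**Figure D4:**
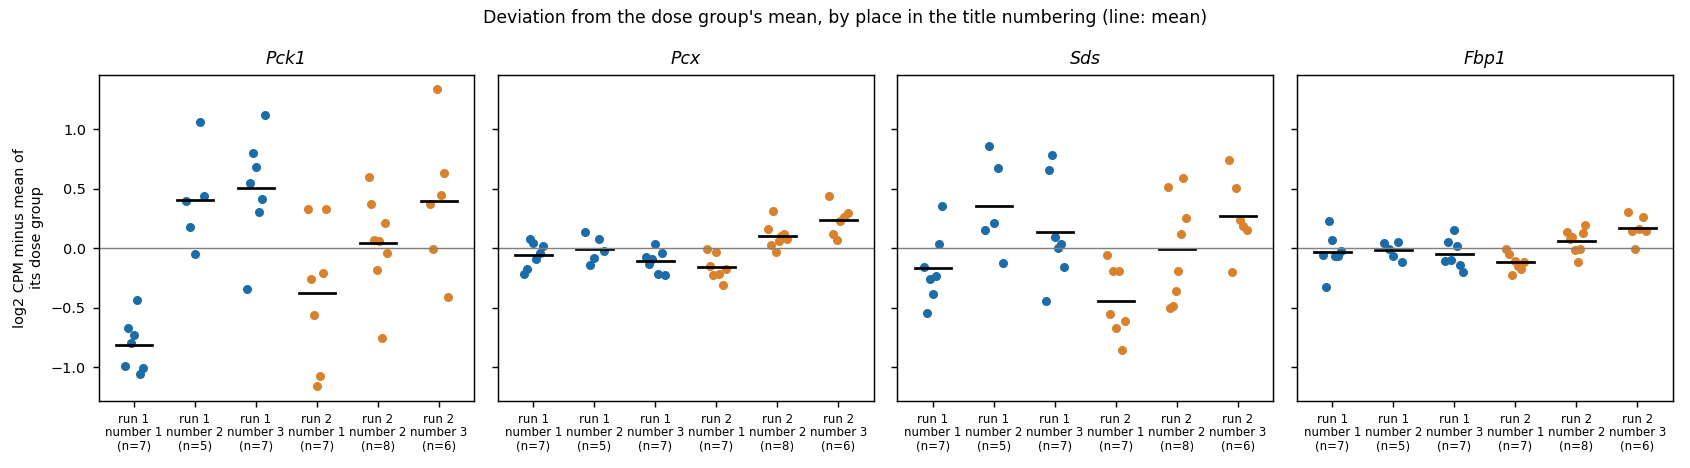
Deviation of each library from the mean of its dose group (log2 CPM, y axis) for Pck1, Pcx, Sds and Fbp1, by run and place in the title numbering (x axis). Points are libraries and lines are means. All Pck1 points numbered first in run 1 lie below 0, with a mean of -0.81.

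**Figure D5:**
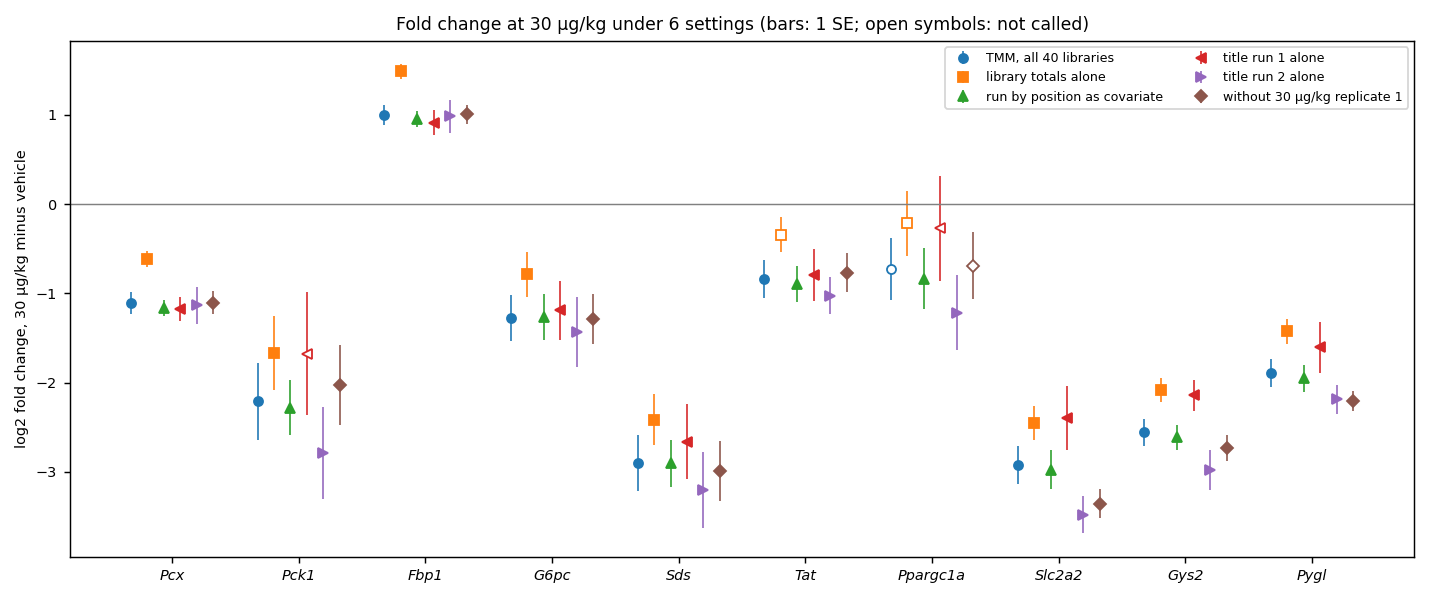
Log2 fold change at 30 μg/kg against vehicle (y axis) of each of the 10 genes (x axis) under 6 settings, with bars of 1 SE and open symbols where the gene was not called. Library totals give the smallest falls for most genes, and Fbp1 lies above 0 under all 6.

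For each of the 9 genes called at 30 μg/kg, the 2 genes outside the lists with the most similar levels over the 40 libraries were found by Pearson correlation of log2 CPM among 7778 genes, as a description only, since the libraries share their dose. Pygl was most like Cps1, the first enzyme of the urea cycle (r = 0.992), and Baat, which conjugates bile acids (r = 0.983). Slc2a2 was most like Ndrg2 (r = 0.982) and Slc10a1, the bile salt importer (r = 0.981), and Gys2 most like Celsr1 (r = 0.984) and Cldn1, a tight junction claudin (r = 0.979). Pcx was most like Fam210b (r = 0.972) and Anpep (r = 0.966), Sds like Slc45a3 (r = 0.944) and Gstm6 (r = 0.926), and Fbp1 like Reep5 (r = 0.935) and Slc3a2, a subunit of amino acid carriers (r = 0.933). The likeness was weaker for Pck1 (Slc25a47, r = 0.883, and Slc45a3, r = 0.874), G6pc (Arl4d, r = 0.880, and Them4, r = 0.797) and Tat (Tsc22d3, a glucocorticoid-induced gene, r = 0.792, and Arl4d, r = 0.773).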

How the data were processed

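RNA-Seq reads, 150 bases and paired, came from NEBNext Ultra II libraries of 40 mouse livers. The authors deposited gene counts for each library, and the submitters' processing notes name FastQC 0.11.7, Trimmomatic 0.39 and STAR 2.7.3a with the builds GRCm39 and mm10, whose roles are not given in the sources used here. Counts without regard to strand were used, since 1 strand column held 50.0 to 50.3% of the reads of both. Rows naming no gene held 19.2 to 28.7% of reads and were left out. The authors also deposited log2 values for 23120 genes, which a blind variance-stabilizing transformation of the same counts (DESeq2 1.42.0) matched within 5.03e-10. Genes passing filterByExpr (minimum count 10) were TMM-scaled and tested in edgeR 4.0.16 (R 4.3.3) by the quasi-likelihood test, with 1 mean per dose over all 40 libraries. Alternatives included DESeq2 and limma 3.58.1 on the log2 table. Named were all 10 genes, of each other list the 4 genes called with the largest change at 30 μg/kg, the other forms of the member enzymes, and the 2 most similar genes. Some genes of these lists enter the counts and medians but are not reported here by name. Other genes were named after their values were seen where a count or call turned on them. The 10 genes and the lists were chosen with earlier results of these data known. The labels give 5 mice per group as separate animals. Counts of all 80 pairs of replicates differed beyond sampling noise (chi-square over its degrees of freedom at least 10.2), so no library was counted as a copy. The quasi-likelihood fit was tested on simulated data. Exon lengths were the union of GENCODE exons, which can exceed the liver transcript.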

Additional observations from a re-analysis of the deposited data

Results flagged for a closer look

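Among the 80 combinations of gene and dose group, 8 held a mouse far from the other 4 (gap over range above 0.71 by Dixon's criterion), and chance alone gives about 1 in 20. In vehicle, G6pc in replicate 3 had 384 CPM with the nearest mouse at 597 CPM. Slc2a2 stood apart in replicate 1 at 30 μg/kg (75.9 CPM, nearest 35.6 CPM) and in replicate 2 at 3 μg/kg (146 CPM, nearest 208 CPM). Pcx had 857 CPM in replicate 5 at 0.03 μg/kg (nearest 643 CPM) and 478 CPM in replicate 4 at 1 μg/kg (nearest 572 CPM). Gys2 had 98.1 CPM in replicate 1 at 1 μg/kg (nearest 83.8 CPM), which was still below every vehicle mouse. Fbp1 had 1305 CPM in replicate 1 at 0.3 μg/kg (nearest 1109 CPM), above every vehicle mouse, and Ppargc1a had 8.03 CPM in replicate 2 at 10 μg/kg (nearest 4.83 CPM).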

How the results depend on the processing

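No paired analysis was possible because replicates were numbered by accession and the numbers tie no mouse of one dose to a mouse of another. Title run and place, whose meaning is not given, entered as a covariate instead. Of the 10 genes, 3 were called at 3 μg/kg. That count was 5 with vehicle and the dose fitted alone, 5 with title run by place as covariate, 5 without a fold threshold, 1 in title run 1 alone, 0 in title run 2 alone, and between 1 and 4 when 1 library was left out, with 1 without replicate 2 of the 3 μg/kg group or without vehicle replicate 4. At 10 μg/kg the count of 8 became 5 under library totals alone and 5 in title run 1 alone, and lay between 6 and 9 with 1 library left out. At 1 μg/kg the count of 0 became 1 without a fold threshold. At 30 μg/kg it lay between 9 and 10 with 1 library left out. The cause of these shifts was not tested, except that single runs hold fewer mice and the fold threshold removes genes by construction. None of the 10 genes reversed direction at 10 or 30 μg/kg in any alternative run. At 10 μg/kg the calls of Pck1, Pygl and Pcx were lost under library totals, those of Pck1, Pygl and Slc2a2 in title run 1 alone, that of Pck1 in title run 2 alone, and Tat, at -0.59 on the log2 scale, was called when replicate 5 of that dose was left out (adjusted p = 0.0416). Ppargc1a had the fewest counts of the 10 genes.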

Other observations

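Within the dose groups some of the 10 genes varied together from mouse to mouse. Over the 40 libraries, after each dose group's mean was removed, log2 CPM of Slc2a2 and Pygl had r = 0.853, Fbp1 and Pcx r = 0.787, Slc2a2 and Gys2 r = 0.619 and Gys2 and Pygl r = 0.609. Pck1 had r = 0.459 with Sds and r = 0.43 with Ppargc1a, but r = -0.416 with Pygl. These are descriptions over libraries that share depth, scaling and title runs. Replicate 1 at 30 μg/kg weighs on several of them. It was the highest of its group for Slc2a2 (75.9 CPM), Gys2 (29.3 CPM) and Pygl (295 CPM) and the lowest for Pck1 (153 CPM). The r values without that mouse were not computed.

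Ugp2, which makes the glucose donor for glycogen, was 289 ± 33.5 CPM in vehicle, 169 CPM at 3 μg/kg and 128 CPM at 10 μg/kg (log2 fold change -1.17, edgeR adjusted p = 5.92e-06), but 384 ± 166 CPM at 30 μg/kg (log2 fold change 0.41, adjusted p = 0.0599). Under library totals it was called higher than vehicle at 30 μg/kg (log2 fold change 0.92). Ugp2 was 2.99-fold higher at 30 than at 10 μg/kg (log2 fold change 1.58, SE 0.19, edgeR adjusted p = 6.35e-08). It was chosen after its values were seen.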
